A study of Caenorhabditis elegans with 8 samples.

Results

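Batch 4 was 1 of 4 paired batches of whole Caenorhabditis elegans and held 2 of the 8 samples of the study, 1 kept with the insect repellent DEET and 1 kept with its solvent DMSO. It was selected on the same gene counts that are described here: both of its samples stood at one end of the first principal component of all tested genes. The differences between batch 4 and batches 1 to 3 are therefore a description, with no test and no p-value. They also compare 1 batch with 3, and the 2 samples of batch 4 share that batch.

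The study asked how 24 h with DEET changes gene expression in worms picked at the end of the L4 larval stage. All 8 samples were col-121 worms, as the labels name them after a cuticle collagen gene, and each sample held 1000 whole animals. The 4 control samples were kept in 0.1% DMSO, and the 4 treated samples with DEET dissolved in DMSO and stated as 0.1 M, without saying whether this was the stock or the final concentration. The labels call the 4 samples of each treatment independent biological repeats and number them by pair, which they also term a batch; each number is shared by 1 sample with DEET and 1 with DMSO. They do not say what a batch shared, such as a worm population, a plate or a day, nor what the col-121 worms carry. Polyadenylated RNA of the whole body was sequenced, so the germline, the gut, the skin and every other tissue are read together. Fewer cells of a tissue and less RNA per cell cannot be told apart in such samples.

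A worm picked at late L4 passes within a day through its last moult into adulthood. In hermaphrodites the gonad makes sperm first and then switches to oocytes, while the adult intestine makes vitellogenins, the yolk proteins that oocytes take up. The epidermis makes cuticle collagens in waves ahead of each moult, and a separate set of collagens builds the adult cuticle. Inducible heat shock genes are nearly silent in unstressed worms and are switched on by the transcription factor HSF-1 when proteins misfold.

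The libraries held 44437681 to 50295321 counts, and 15496 of the 46244 gene identifiers passed the filter on low counts. Batch 4 had 16078 and 16123 genes with 10 or more counts, above the 14978 to 15571 of the other 6 samples. Ribosomal RNA took 12.1% of the counts in its DEET sample and 10.9% in its DMSO sample, against 3.91% to 8.32% in the others, and the mitochondrial genome took 1.1% and 1.0%, against 0.794% to 0.971%. The 10 most counted genes took 19.4% and 19%, against 14.4% to 17.3%. These shares moved with batch 4, and their part in the results below was not tested, apart from a recount without ribosomal RNA genes. The first principal component held 68.2% of the variance. DEET 4 scored 61.1 and DMSO 4 scored 67.7, the batch 1 samples scored 2.7 and 1.26, and the samples of batches 2 and 3 scored -45.5 to -19.5. col-121 itself had 0.987 and 0.946 CPM (counts scaled to a common library size by TMM) in batch 4 and 0.422 to 1.49 CPM in the others, and it overlaps daf-15 on the other strand. Markers of adult hermaphrodites were present in all samples, with col-19 at 690.1 CPM or more and vitellogenins at 5.31% of the counts or more, and of 13 male-enriched somatic and seminal genes 9 did not pass the filter and the other 4 had at most 1.19 CPM in any sample.

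A gene was called set apart when its treatment-adjusted log2 CPM difference was at least 1 in size and both batch 4 samples lay outside the range of the other 6. The difference is the mean of the batch 4 minus batches 1 to 3 differences within DEET and within DMSO. By this rule 1832 genes (11.8% of those tested) were higher in batch 4 and 54 (0.348%) were lower; without the ribosomal RNA genes in the scaling the counts were 1757 and 63. Without the size limit, 5332 genes (34.4%) lay above the other 6 samples and 4594 (29.6%) below them. These shares come from the contrast that chose the batch and carry no evidence of their own. Genes just inside and just outside the limit had differences of 1.00 on the higher side and -1 on the lower side.

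The genes set apart were weakly counted on both sides, with a median level of 1.72 CPM for the 1832 higher genes and 3.7 CPM for the 54 lower genes, against 9.21 CPM over all tested genes. Without the size limit the levels differed between the sides. The 5332 genes above the other samples had a median level of 3.52 CPM and a median difference of 0.76, and the 4594 genes below them had a median level of 68.1 CPM and a median difference of -0.41. The median difference over all tested genes was 0.08, and with the size factors of DESeq2 it was 0.03. Of the higher genes 1718 were protein-coding and 333 belonged to the gene lists used here. Of the 54 lower genes 40 were protein-coding and 13 belonged to a list.

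**Figure D1:**
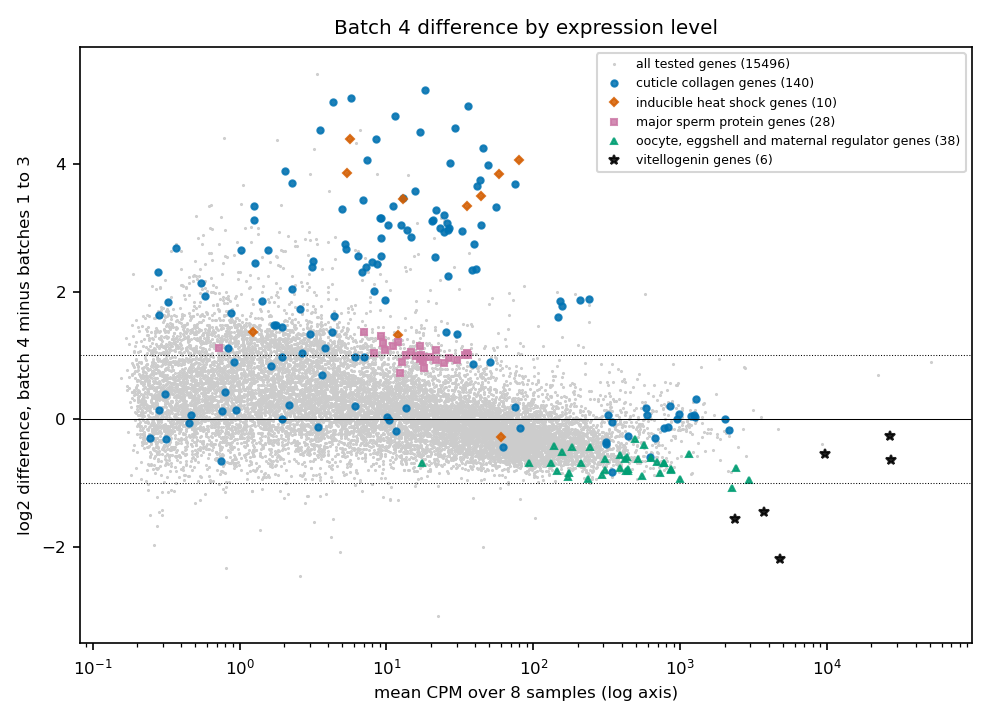
Treatment-adjusted log2 difference between batch 4 and batches 1 to 3 (vertical axis) against the mean CPM over the 8 samples (horizontal log axis), 1 point per tested gene, with 5 gene lists in colour. The dotted lines mark differences of 1 and -1. Cuticle collagens and inducible heat shock genes of low mean CPM stand highest, sperm protein genes lie near 1, and vitellogenins and oocyte genes lie below 0.

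The genes were then read by tissue and programme in 53 gene lists. Of these lists 9 had a median difference of at least 0.5 with both batch 4 samples above the others, and 3 had a median of -0.5 or lower with both below. The higher ones were cuticle collagens, annular furrow collagens, major sperm proteins, other sperm genes, inducible heat shock genes, fasting and lipid breakdown genes, antimicrobial effectors, insulin-like and neuropeptide genes, and hypoxia response genes. The lower ones were vitellogenins, oocyte and eggshell genes, and germ granule genes.

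**Figure D2:**
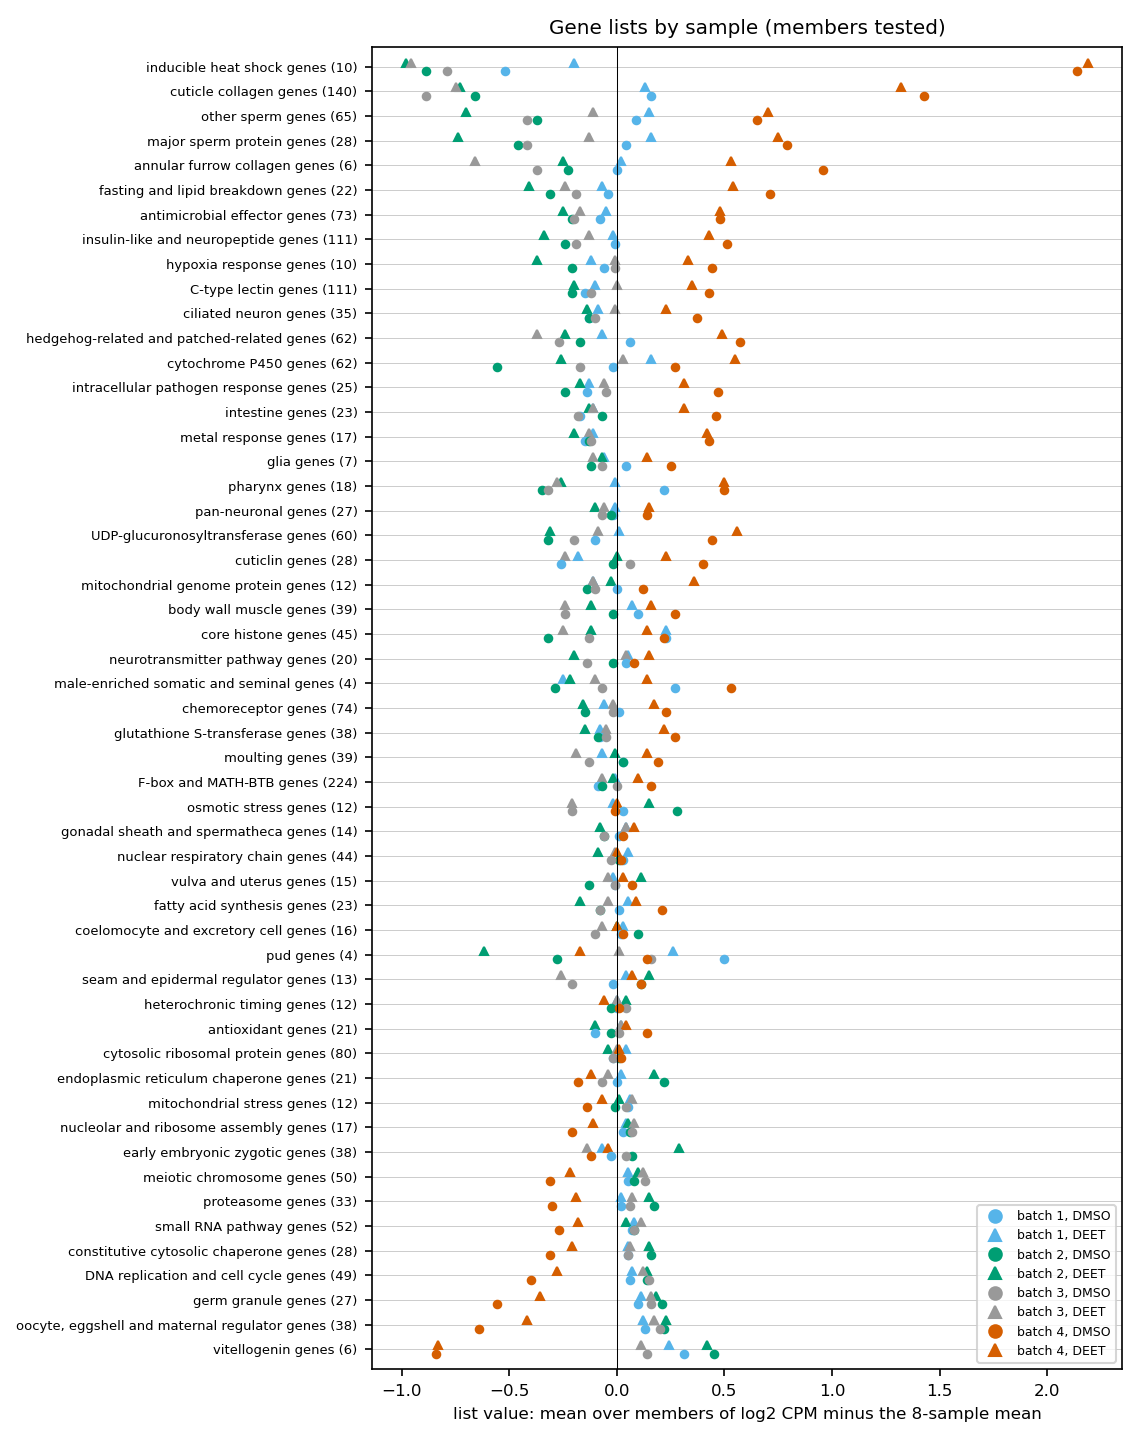
List value of each of the 53 gene lists in each of the 8 samples, as the mean over tested members of log2 CPM minus the 8-sample mean (horizontal axis). Circles are DMSO and triangles DEET samples, coloured by batch, and lists are ordered by their median batch 4 difference. The batch 4 points stand to the right for heat shock, collagen and sperm lists and to the left for oocyte, germ granule and vitellogenin lists.

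Cuticle collagens, the structural proteins of the worm's outer coat, were the list with the most genes set apart. Of 140 tested members 89 were set apart higher and 0 lower, and 95 lay above and 8 below the other 6 samples. Their median difference was 1.87. The list value was 1.32 and 1.43 in batch 4, 0.13 and 0.16 in batch 1, and -0.89 to -0.66 in batches 2 and 3. Batch 4 thus stood highest, batch 1 next and batches 2 and 3 together lowest. All collagens together took 2.45% and 2.54% of the counts in batch 4, against 1.67% to 2.2% in the others.

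The leading collagen, col-145 (chromosome V, 9161992 to 9163005, minus strand, build WBcel235), had 69.0 CPM in DEET 4 and 64.6 CPM in DMSO 4. In batches 1, 2 and 3 it had 4.08, 1.3 and 1.03 CPM with DEET and 4.87, 1.94 and 0.689 CPM with DMSO. Both batch 4 samples lay far above the rest, with batch 1 above batches 2 and 3. The log2 difference was 5.16, or 35.8-fold, and the SD of the means of batches 1 to 3 was 1.18 on the log2 scale (n = 3).

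Others of the leading collagens are neighbours on chromosome X. col-167 (6323488 to 6324393), col-168 (6326388 to 6327293) and col-169 (6329160 to 6330062) lie on the plus strand within 1 stretch. col-167 had 128.4 and 128.8 CPM in batch 4 with DEET and DMSO, against 9.09, 2.98 and 2.62 CPM with DEET and 10.4, 3.25 and 2.39 CPM with DMSO in batches 1, 2 and 3. Its difference was 4.91 (SD of the 3 batch means 1.04). For col-168 the batch 4 values were 38.4 and 42.2 CPM and the others 0.474 to 4.51 CPM, a difference of 4.76. For col-169 they were 14.6 and 17 CPM against 0.172 to 0.845 CPM, a difference of 4.98. In all 3 genes the groups did not overlap. Collagen genes resemble each other in sequence, and how the authors' quantifier shared reads among them was not examined here.

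col-7, a collagen known from the adult cuticle, had 59.1 CPM in DEET 4 and 53.7 CPM in DMSO 4. Its other samples held 8.18, 0.661 and 2.84 CPM with DEET and 8.95, 1.18 and 1.21 CPM with DMSO, in the order of batches 1 to 3. Batch 1 was again the nearest to batch 4, and the difference was 4.51 (SD of the 3 batch means 1.64). col-19, the collagen most used as a marker of the adult cuticle, had 924.9 and 945.3 CPM in batch 4. Its values in batches 1, 2 and 3 were 966.6, 690.1 and 793.8 CPM with DEET and 927.0, 810.4 and 708.4 CPM with DMSO. Batch 4 lay inside the range of the others, and the difference of 0.21 was close to the SD of the 3 batch means, 0.2. These 2 adult collagens thus stood differently in batch 4.

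The split between them ran through the collagen list by level. Of the 26 collagens with a mean of 100 CPM or more, 5 were set apart higher, 7 lay below the others and 14 overlapped them, and their median difference was 0.04. Of the 114 collagens under that level, 84 were set apart higher and 1 lay below, with a median of 2.42. The 5 strongly counted collagens that were higher were col-139, col-129, col-92, col-81 and col-159, with differences of 1.6 to 1.89. col-139 had 509.9 and 487.1 CPM in batch 4, against 266.7 and 243.1 CPM in batch 1 and 75.1 to 131.5 CPM in batches 2 and 3. On the other side col-101 had 219.8 and 209.2 CPM in batch 4 against 336.4 to 480.4 CPM elsewhere, a difference of -0.83. Batch 4 was thus low for col-101 and for col-143 (441.7 and 450.2 CPM against 626.0 to 773.8 CPM) although most collagens were high.

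**Figure D3:**
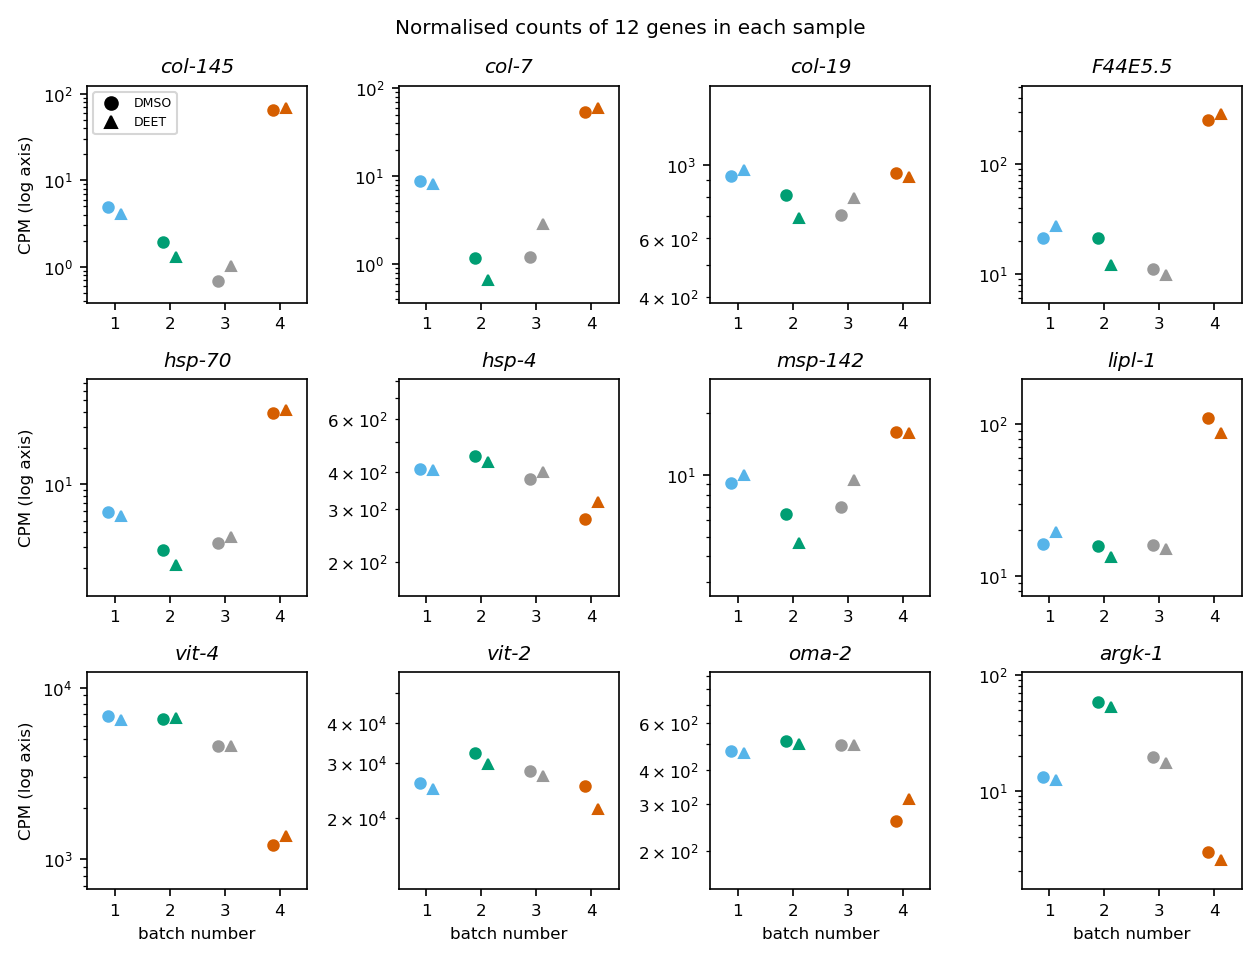
CPM of 12 genes (vertical log axes) in each sample by batch number (horizontal axis), circles for DMSO and triangles for DEET. Batch 4 stands above all other samples for col-145, col-7, F44E5.5, hsp-70, msp-142 and lipl-1, below them for vit-4, oma-2, hsp-4 and argk-1, and within or at the edge of their range for col-19 and vit-2.

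The annular furrow collagens shape the rings of the cuticle and are made early in each moulting wave. All 6 lay above the other samples, and 3 were set apart. dpy-7 had 3.85 and 4.77 CPM in batch 4 against 1.19 to 2.65 CPM elsewhere, a difference of 1.04, or 0.83 without DEET 3. dpy-10, from the same furrow group, had 6.87 and 6.7 CPM against 5.25 to 6.67 CPM, and its difference of 0.2 lay under the size limit. rol-6, a collagen known from mutants that roll, had 14.6 and 21.1 CPM in batch 4. The other samples held 8.46, 3.11 and 2.79 CPM with DEET and 9.62, 3.28 and 2.8 CPM with DMSO, so batch 4 was above all of them by a difference of 2.01.

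Other cuticle and moulting genes moved less. Of 39 moulting genes 4 were set apart higher (mlt-8, qua-1, phy-2 and mlt-9) and 1 lower (mltn-2), with a median difference of 0.16. The share set apart higher, 10.3%, was under the 11.8% of all tested genes. phy-2, a subunit of the enzyme that hydroxylates collagen, had 105.6 and 104.5 CPM in batch 4 and 36.2 to 47 CPM in the other 6, a difference of 1.35 (SD of the 3 batch means 0.11). mlt-10, a marker of moulting, had 8.49 and 11.5 CPM against 5.84 to 9.74 CPM and overlapped. The hedgehog-related and patched-related genes, many of them made by the epidermis, had 19 of 62 members set apart higher and 0 lower. As a whole, however, this list took a smaller share of the counts in batch 4. The share was 0.146% in DEET 4 and 0.138% in DMSO 4, against 0.155% to 0.166% in the others. grl-21, a ground-like member, had 24.8 and 20.7 CPM in batch 4 against 0.302 to 2.5 CPM elsewhere, a difference of 4.53. Among cuticlins, the insoluble cuticle proteins, 4 of 28 were set apart higher, led by cut-2 at 14.6 and 18.3 CPM against 1.72 to 3.23 CPM. The 13 seam and epidermal regulators had 1 member set apart higher, nhr-73, which had 0 counts in both batch 3 samples and whose difference of 1.63 was 0.50 without batch 3. The 12 heterochronic timing genes had 0 in either direction, and the seam and epidermal list had 0 lower. Set apart higher were 30.6% of the hedgehog-related and patched-related genes, 14.3% of the cuticlins and 7.69% of the seam and epidermal regulators.

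Sperm genes were higher in batch 4 as a body. All 28 tested major sperm protein genes lay above the other 6 samples, and 15 were set apart. Their differences ran from 0.73 to 1.36 with a median of 1.00. The list value was 0.75 and 0.79 in batch 4, 0.16 and 0.04 in batch 1, -0.74 and -0.46 in batch 2, and -0.13 and -0.42 in batch 3. msp-142 had 839 and 837 unscaled counts in batch 4 with DEET and DMSO, against 458, 217 and 427 counts with DEET and 455, 280 and 324 counts with DMSO in batches 1, 2 and 3. The groups did not overlap, and the log2 CPM difference was 1.09 (SD of the 3 batch means 0.41), or 0.85 without batch 2. The msp genes are near-identical copies, so the split of reads among them is uncertain, and the list as a whole took 0.0799% and 0.0848% of the counts in batch 4 against 0.0273% to 0.0502%.

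The other sperm genes had a median near that of the major sperm proteins. Of 65 tested, 33 were set apart higher and 0 lower, 57 lay above the rest and 4 below, and the median difference was 1.01. spe-11, which sperm bring into the egg, had 13.1 and 13.7 CPM in batch 4, 7.55 and 7.77 CPM in batch 1, and 4.03 to 5.98 CPM in batches 2 and 3. The 4 members below the others were spe-48, spe-44, spe-39 and cpb-1, with differences of -0.23, -0.42, -0.44 and -0.7. spe-44 encodes a transcription regulator of the sperm programme and cpb-1 an RNA-binding protein that acts before meiotic division in sperm development. The Argonaute genes alg-3 and alg-4, which act in sperm development, were higher too. alg-3 had 1255 and 1237 unscaled counts in batch 4 against 322 to 776 counts, a log2 CPM difference of 1.15, and alg-4 had 28 and 25.5 CPM against 6.76 to 18.9 CPM, also 1.15. Without batch 2, the lowest batch, these differences were 0.88 and 0.85, under the limit.

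Oocyte, eggshell and maternal regulator genes were lower in batch 4 without exception among the 38 tested. All 38 lay below the other 6 samples, although only 1 passed the size limit, and the differences ran from -1.08 to -0.31 with a median of -0.69. The list value was -0.42 in DEET 4 and -0.64 in DMSO 4, against 0.12 to 0.23 in the other 6. The SD of the list means of batches 1 to 3 was 0.05. These genes took 1.7% and 1.5% of the counts in batch 4 and 2.44% to 2.56% elsewhere.

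cpg-1, which encodes a chondroitin proteoglycan of the eggshell, had 1320 CPM in DEET 4 and 1120 CPM in DMSO 4. Batches 1, 2 and 3 had 2625, 2637 and 2442 CPM with DEET and 2711, 2597 and 2420 CPM with DMSO. The other 6 samples lay close together and batch 4 far below them, with a difference of -1.08 (SD of the 3 batch means 0.07), or -0.96 without DMSO 4. oma-2, an RNA-binding protein needed for oocyte maturation, had 312.1 and 259.8 CPM in batch 4 against 465.3, 501.0 and 497.5 CPM with DEET and 470.4, 514.4 and 496.1 CPM with DMSO. Its difference was -0.78 (SD of the 3 batch means 0.06). rme-2, the yolk receptor of oocytes, had 667.1 and 528.9 CPM in batch 4 against 1112 to 1188 CPM, a difference of -0.93. In each of these genes DMSO 4 was the lowest of the 8 samples and DEET 4 the next lowest.

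Other germline lists followed in the same direction with smaller sizes. Of 27 germ granule genes 25 lay below the others and the remaining 2, pgl-2 and ife-1, overlapped, with a list median of -0.66. pgl-1, a core germ granule protein, had 368.1 and 300.4 CPM in batch 4 against 485.3 to 522.3 CPM, a difference of -0.59 (SD of the 3 batch means 0.03). The helicase gene glh-1 had 381.0 and 327.2 CPM against 493.0 to 579.9 CPM, also -0.59. Of 49 DNA replication and cell cycle genes 45 lay below and 0 above, with a median of -0.48. Of 50 meiotic chromosome genes 40 lay below and 0 above, with a median of -0.36. syp-1, a protein of the synaptonemal complex, was among those that overlapped, at 72.5 and 71.6 CPM against 61.9 to 75.0 CPM. No member of these 3 lists was set apart in size. Over all tested genes 29.6% lay below the others, and the highest of 4 equal groups by mean CPM had a median of -0.30.

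The small RNA pathway genes stood on both sides. Of 52 tested, 42 lay below the others and 4 above, and the 3 set apart were alg-3, alg-4 and wago-10, all higher; wago-10 was at 0.82 without batch 2. The 38 early embryonic zygotic genes that passed the filter had 8 members above, 10 below and 20 overlapping, and 0 set apart. Of 45 core histone genes 2 were set apart higher and 33 overlapped. The shares set apart higher, 5.77% of the small RNA list and 4.44% of the histone list, were under the 11.8% of all tested genes. Of all tested genes 34.4% lay above the others and 29.6% below. Batch 4 thus did not stand outside the others on embryonic genes as a group: the list value was -0.04 and -0.12, inside the range of -0.14 to 0.29 of the other 6.

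Vitellogenins, the yolk proteins made in the intestine, were lower in batch 4 to very different degrees. The 6 genes together took 5.31% and 6.02% of the counts in batch 4 against 7.34% to 9.04% elsewhere. vit-4 had 1361 CPM in DEET 4 and 1207 CPM in DMSO 4, against 6494, 6642 and 4550 CPM with DEET and 6803, 6557 and 4548 CPM with DMSO in batches 1, 2 and 3. Its difference of -2.19, or 4.56-fold, had an SD of the 3 batch means of 0.31. vit-1 at 989.9 and 912.4 CPM against 2290 to 3298 CPM (-1.56) and vit-3 at 1668 and 1521 CPM against 3830 to 4824 CPM (-1.46) were also set apart. vit-5 (-0.55) and vit-6 (-0.64) lay below the others but under the size limit. vit-2 had 21452 and 25259 CPM in batch 4 against 24731, 29727 and 27240 CPM with DEET and 25813, 32229 and 28223 CPM with DMSO. It overlapped, because DMSO 4 lay above DEET 1. Several vit genes are close copies, vit-3, vit-4 and vit-5 in particular, so the division of reads among them is uncertain.

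Other intestinal genes went the opposite way from the yolk genes. Of 23 intestine markers 17 lay above the others, 1 (pho-1) below and 5 overlapped, with a median of 0.46, and the list value was 0.31 and 0.46 in batch 4 against -0.18 to -0.07. Of all tested genes 34.4% lay above the others and 29.6% below. The 2 members set apart, 8.7% of the list against 11.8% of all tested genes, were cathepsin B-like proteases of the gut. cpr-4 had 309.8 and 342.8 CPM in batch 4 against 77.0, 64.9 and 110.5 CPM with DEET and 68.2, 69.4 and 113.2 CPM with DMSO, a difference of 2. cpr-1 had 463.5 and 549.9 CPM against 106.1 to 206.3 CPM, a difference of 1.79. For both genes batch 3 was the nearest to batch 4. ges-1, a gut esterase, had 53.0 and 55.7 CPM against 42.2 to 46.1 CPM, a difference of 0.3. elt-2, the main gut transcription factor, also lay above the other 6 samples, with a difference of 0.26.

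The list values of muscle and nerve genes were above the others in batch 4, with small sizes. Over all tested genes 34.4% lay above the others and 29.6% below, and 11.8% were set apart higher. Of the body wall muscle genes 2.56% were set apart higher, and of the pan-neuronal genes 0%. Of 39 body wall muscle genes 23 lay above and 5 below, and only tni-1, a troponin I gene, was set apart, at 37.8 and 42.3 CPM against 11.7 to 18.7 CPM. unc-54, the major body wall myosin, had 1447 and 1720 CPM in batch 4 and overlapped the 1105 to 1822 CPM of the others. Of 27 pan-neuronal genes 15 lay above and 7 below, with 0 set apart, and unc-119 overlapped at 7.73 and 5.87 CPM against 6.21 to 8.6 CPM. Insulin-like and neuropeptide genes had 22 of 111 members set apart higher and 1 lower, with a median of 0.57. Of 35 ciliated neuron genes 2 (osm-5 and osm-6, the latter at 0.95 without DMSO 4) were set apart higher, and of 74 tested chemoreceptor genes 6 higher and 1 lower. These shares on the higher side, 5.71% and 8.11%, were under the 11.8% of all tested genes. Among 18 pharynx genes 6 were set apart higher; 5 were abu genes, known from the pharyngeal cuticle, while the pharyngeal myosins myo-1 and myo-2 overlapped at 15 to 16.8 CPM in batch 4 against 14.9 to 24.5 CPM.

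Inducible heat shock genes had the highest list median, 3.48, and 9 of 10 tested members were set apart higher. The list value was 2.19 and 2.14 in batch 4, -0.2 and -0.52 in batch 1, and -0.98 to -0.79 in batches 2 and 3. These 10 genes took 0.0945% and 0.0881% of the counts in batch 4 against 0.0116% to 0.0153% elsewhere. The tenth member, the small heat shock gene hsp-43, lay below the others at 51.5 and 51 CPM against 52.5 to 76.7 CPM.

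F44E5.5, a gene of the inducible cytosolic Hsp70 group, had 285.8 CPM in DEET 4 and 250.6 CPM in DMSO 4. The others held 27.1, 12.1 and 9.85 CPM with DEET and 21.2, 21.3 and 11.1 CPM with DMSO in batches 1, 2 and 3. Batch 4 lay above all of them by a difference of 4.07, or 16.8-fold (SD of the 3 batch means 0.6). Its neighbour F44E5.4, on the other strand of chromosome II, had 192.1 and 188.5 CPM against 7.85 to 23.7 CPM, and the 2 genes are near-identical copies whose reads may be shared. hsp-70, the third of this group, had 41.5 and 39.0 CPM in batch 4 against 2.13 to 5.85 CPM, a difference of 3.45, and it overlaps uggt-2 on the other strand. The small heat shock genes hsp-16.2 and hsp-16.41 are a divergent pair on chromosome V. hsp-16.2 had 17.9 and 17.5 CPM in batch 4, with 2.45 CPM in DEET 1, 1.53 CPM in DMSO 1 and 0.792 to 1.04 CPM in batches 2 and 3. hsp-16.41 had 19.8 and 19.3 CPM, with 2.0 CPM in DEET 1 and 0.506 to 0.938 CPM in the other 5. Both batch 4 samples were high in all of these genes, with and without DEET.

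Constitutive chaperones stood on the other side. Of 28 cytosolic chaperone genes that are made without stress 23 lay below the other samples and 1 (hsp-25) above, with a median of -0.41 and 0 set apart. hsp-90 had 2068 and 1847 CPM in batch 4 against 2489 to 2915 CPM, a difference of -0.44. hsp-1, the constitutive Hsp70, had 2159 and 1923 CPM against 2900 to 3331 CPM (-0.58), and hsf-1 itself had 83.4 and 71.5 CPM against 108.4 to 120.3 CPM (-0.57). Batch 4 was thus high for inducible and low for constitutive members of the same protein families. All 29 of the 33 proteasome genes that did not overlap lay below, with a median of -0.37. Over all tested genes 29.6% lay below the others. In the highest of 4 equal groups by mean CPM the median difference was -0.30, and the part of level in these lists was not tested. hsp-4, the endoplasmic reticulum chaperone used to read the unfolded protein response, had 317.1 and 278.0 CPM against 377.4 to 450.3 CPM, a difference of -0.47, and the endoplasmic reticulum list had 0 of 21 members set apart. hsp-6, the mitochondrial Hsp70, had 849.3 and 743.2 CPM against 838.2 to 1041 CPM and overlapped.

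Other stress programmes differed one from another. Among 17 metal response genes 5 were set apart higher and 0 lower: mtl-1, ftn-1, cdr-1, mtl-2 and cdf-2. mtl-1, a metallothionein, had 46.9 and 52.4 CPM in batch 4 against 16.6, 12.2 and 21.2 CPM with DEET and 18.4, 14.1 and 24.2 CPM with DMSO, a difference of 1.51. ftn-1, an iron-storing ferritin, had 63.0 and 70.9 CPM against at most 32.1 CPM, a difference of 1.47. Of 10 hypoxia response genes nhr-57, sqrd-1 and cysl-2 were set apart higher, the last at 119.4 and 132.4 CPM against 39.1 to 79.2 CPM, while hif-1 itself overlapped. Without batch 2, sqrd-1 and cysl-2 had differences of 0.80 and 0.79, under the limit. Of 21 antioxidant genes only msra-1, a methionine sulfoxide reductase, was set apart, at 38.7 and 42.1 CPM against 13.4 to 17.2 CPM; sod-3, a superoxide dismutase, overlapped at under 1 CPM in all samples. gpdh-1, an enzyme of glycerol synthesis that osmotic stress switches on, was the 1 member of 12 osmotic stress genes set apart, and it was lower. It had 5.26 and 4.65 CPM in batch 4, 6.01 to 7.54 CPM in batches 1 and 3, and 22.6 and 26.5 CPM in batch 2, and without batch 2 its difference went from -1.06 to -0.46, under the limit.

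Genes of fasting and lipid breakdown were higher in part. Of 22 tested, 9 were set apart higher and 0 lower, 12 lay above and 4 below, and the median was 0.84. lipl-1, a lysosomal lipase made in fasting, had 86.5 CPM in DEET 4 and 108.8 CPM in DMSO 4, against 19.4, 13.4 and 15 CPM with DEET and 16.3, 15.7 and 16 CPM with DMSO. The other 6 lay close together, and the difference was 2.61 (SD of the 3 batch means 0.15). The related lipase lipl-2 had 100 and 131.7 CPM against 21.2 to 40.4 CPM (1.90), and ech-9, an enoyl-CoA hydratase gene, 59.9 and 85.4 CPM against 10.6 to 16.9 CPM (2.38). acs-2, an acyl-CoA synthetase that feeds mitochondrial fat burning, had 236.7 and 254.7 CPM in batch 4, 147.8 to 197.4 CPM in batches 1 and 3, and 31.4 and 39.7 CPM in batch 2. Its difference of 1.29 was 0.51 without batch 2, under the limit. The transcription factors hlh-30 (overlapping) and nhr-49 (98.1 and 103.3 CPM against 113.6 to 119.4 CPM, lower) that act on such genes were not set apart. The shares of all tested genes were 34.4% above the others, 29.6% below and 11.8% set apart higher. Of 23 fatty acid synthesis genes 10 lay above and 9 below, with a median of 0.04. Of these genes 3 (13%) were set apart higher, near the share of all tested genes. Among them fat-3, a desaturase of polyunsaturated fatty acids, had 419.1 and 504.6 CPM against at most 194.3 CPM (1.52), while fat-7 overlapped.

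Immune and detoxification families held different shares of genes set apart higher, to be read against the 11.8% of all tested genes. That share fell with level, from 21.7% in the lowest of 4 equal groups by mean CPM to 0.903% in the highest. The families were not matched for level. Antimicrobial effectors had 16 of 73 set apart higher and 3 (spp-17, cnc-7 and cnc-2) lower, with a median of 0.59. lys-4, a lysozyme gene, had 143.3 and 164.6 CPM in batch 4 against 24.4 to 48.9 CPM (1.98), and spp-2, a saposin-like gene, 141.7 and 172.9 CPM against 30.5 to 56.5 CPM (1.87). nlp-29, the antimicrobial peptide gene used to read epidermal infection and wounding, had 17.3 and 18.2 CPM against 15.7 to 21.8 CPM and overlapped. C-type lectins had 29 of 111 set apart higher and 1 lower, UDP-glucuronosyltransferases 14 of 60 and 0, cytochrome P450 genes 12 of 62 and 0, and glutathione S-transferases 3 of 38 and 0. Of 25 intracellular pathogen response genes 3, all pals genes, were set apart higher. The glutathione S-transferases (7.89%) and the intracellular pathogen response genes (12%) lay under or near the share of all tested genes. ugt-66 had 9.28 CPM in DEET 4 and 3.61 CPM in DMSO 4, against 0.128 to 0.391 CPM elsewhere, a difference of 4.37. cyp-34A9 was higher with DEET in every batch and highest in batch 4 within each treatment. It had 29.1 CPM in DEET 4 and 11.4 CPM in DMSO 4, against 8.4, 4.31 and 11.1 CPM with DEET and 2.03, 0.623 and 5.06 CPM with DMSO in batches 1, 2 and 3.

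Among the genes with a mean of 10 CPM or more, the lowest in batch 4 was argk-1, which encodes an arginine kinase that buffers cellular energy. It had 2.53 CPM in DEET 4 and 2.95 CPM in DMSO 4, against 12.4, 53.3 and 17.4 CPM with DEET and 13, 58.5 and 19.6 CPM with DMSO in batches 1, 2 and 3. Batch 4 was the lowest and batch 2 by far the highest, and the difference of -3.09 was -2.49 without batch 2. cth-1, encoding a cystathionine gamma-lyase of cysteine synthesis, is its neighbour on the plus strand of chromosome V (16100680 to 16102750, with argk-1 at 16103894 to 16105952). It had 664 and 703 unscaled counts in batch 4 with DEET and DMSO, against 1639, 3970 and 2103 counts with DEET and 1795, 3910 and 2098 counts with DMSO. The 2 neighbours had the same order of batches, and the log2 CPM difference of cth-1 was -2, or -1.65 without batch 2.

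The other lower genes named by the rule were vit-4, vit-1, vit-3, F46F2.3, H11L12.1, F48E3.2, rom-4 and cubn-1. rom-4, a rhomboid-related gene, had 33 and 47.3 CPM against 84.9 to 101.1 CPM, a difference of -1.25 (SD of the 3 batch means 0.03). cubn-1, named for the endocytic receptor cubilin, had 5.47 and 4.83 CPM against 10.1 to 14.9 CPM, also -1.25, and overlaps 2 genes on the other strand. F46F2.3 had 39.0 and 39.9 CPM in batch 4, 86.4 to 90.7 CPM in batches 1 and 3, and 199.2 and 187.2 CPM in batch 2. F48E3.2 was lower by -1.26, and by -0.97 without batch 2, just under the limit.

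Housekeeping lists differed in where they stood. The proteasome list was lower, as given above. Of 17 nucleolar and ribosome assembly genes 13 lay below the others and 1 above, with a median of -0.23. By median, the cytosolic ribosomal protein and nuclear respiratory chain lists stood nearer to the other batches. Over all tested genes 34.4% lay above the others and 29.6% below. The 80 cytosolic ribosomal protein genes had 29 members above, 33 below and 0 set apart, with a median of -0.03. The 44 nuclear respiratory chain genes had a median of 0.04 and 0 set apart. Of 12 mitochondrial genome protein genes 6 lay above and 0 below, with a median of 0.32 and 0 set apart, and the list value was 0.36 in DEET 4 and 0.12 in DMSO 4 against -0.14 to 0.00.

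For 4 of the higher lists batch 1 was set beside batch 4. For the 140 collagens the median difference from the mean of batches 2 and 3 was 1.01 in batch 1 and 2.31 in batch 4. For the 28 major sperm protein genes these values were 0.52 and 1.18, for the 65 other sperm genes 0.55 and 1.21, and for the 10 inducible heat shock genes 0.69 and 3.74. The values share batches 2 and 3 as their reference and are set side by side without a test. The order was not the same in every higher list: for the hypoxia response genes batch 3, with list values of -0.01 and -0.01, lay nearer to the 0.33 and 0.44 of batch 4 than batch 1 did, at -0.12 and -0.06. Over the oocyte list the values of batch 1, 0.12 and 0.13, lay just under the 0.17 to 0.23 of batches 2 and 3.

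Whether batch 4 also answered DEET differently was tested, because the choice of the batch did not use that difference. Each treatment of batch 4 held 1 sample, so the spread in these fits came from batches 1 to 3 alone and batch 4 was assumed to vary like them; the test compares these 2 libraries with the rest and has no replicate of the response in batch 4. The interaction of treatment and batch 4, by edgeR's quasi-likelihood test with Benjamini-Hochberg adjustment, called 0 of 15496 genes (0%), with a smallest adjusted p of 0.79. The log2 response in batch 4 minus that in the others had a median of -0.00 over all tested genes. With the batch number as a replicate block edgeR called 1 gene (0.00645%), him-4, which encodes the extracellular matrix protein hemicentin. him-4 had 19.2 CPM in DEET 4 and 39.2 CPM in DMSO 4, against 56.8, 50.7 and 36.8 CPM with DEET and 59.0, 48.7 and 34.2 CPM with DMSO in batches 1, 2 and 3. DEET 4 alone was low, and the log2 response was -1.03 in batch 4 and -0.05, 0.06 and 0.10 in the others (blocked edgeR adjusted p = 0.021; 1.00 without the block). him-4 overlaps F15G9.5 on the other strand.

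DESeq2, which gave an adjusted p to 1376 genes, called 6 (0.436%), all with a response higher in batch 4: pxf-1, MTCE.31, MTCE.12, lst-4, hrpu-1 and egg-4. pxf-1, a guanine nucleotide exchange factor gene, had 180.5 CPM in DEET 4 and 115.8 CPM in DMSO 4, against 208.1, 170.3 and 221.4 CPM with DEET and 228.5, 221.9 and 246.3 CPM with DMSO. DMSO 4 was the lowest sample, and the response was 0.64 in batch 4 and -0.38 to -0.13 in the others (DESeq2 adjusted p = 0.0022; edgeR 0.79). The mitochondrial gene MTCE.12 had 676.6 CPM in DEET 4 and 203.1 to 405.8 CPM in the other 7 samples, and it overlaps ND1. egg-4, which encodes a regulator of the egg-to-embryo transition, had 167.1 CPM in DEET 4 and 126.8 CPM in DMSO 4, against 228.1 to 241.2 CPM elsewhere (DESeq2 adjusted p = 0.014; edgeR 0.79).

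DESeq2 with the replicate block, a fit chosen after the data were seen, called 608 genes with a larger DEET minus DMSO difference in the 2 batch 4 libraries (19.1% of the 3179 given an adjusted p) and 19 with a smaller one (0.598%). Oocyte and germ granule genes were among those with a larger difference, and all of these calls rest on the same 2 libraries. Within batch 4 the median DEET minus DMSO difference of the oocyte list was 0.24 on the log2 scale, against -0.01, -0.01 and -0.02 in batches 1, 2 and 3. For the constitutive chaperones it was 0.14 against -0.02 to 0.01, and for the DNA replication genes 0.12 against -0.01 to 0.00. In these lists, which were low in both samples of batch 4, the DEET sample was the less low of the 2. The collagens, at -0.02 in batch 4 and -0.11 to 0.12 in the others, and the major sperm proteins, at -0.05 and -0.30 to 0.30, lay within the range of the other batches. The intestine list had -0.15 in batch 4 and -0.10 to 0.08 in the others. The number of genes called thus ran from 0 to 627 over the 4 fits, and no gene was called by edgeR without the block.

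**Figure D4:**
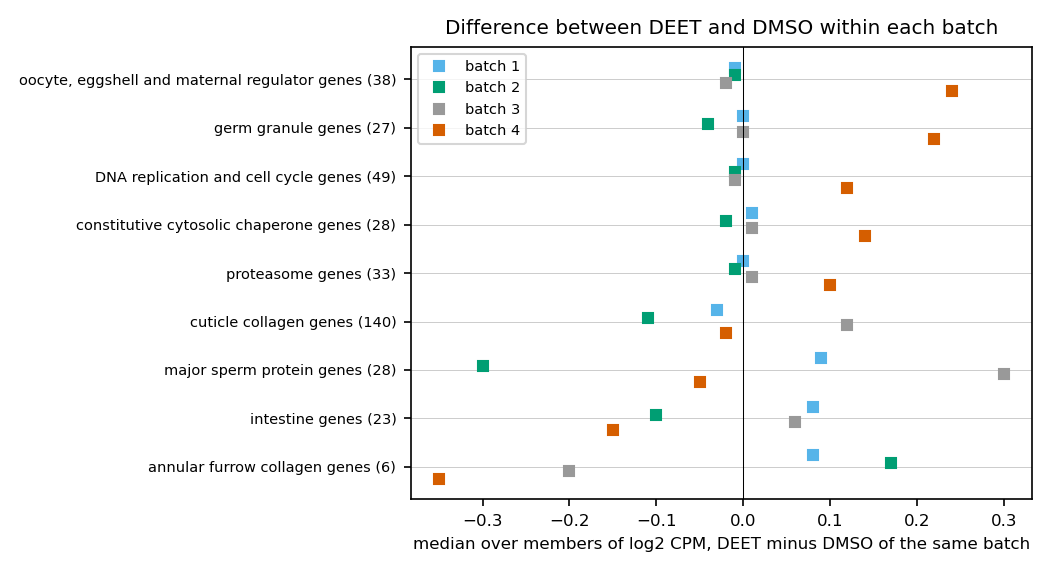
Median over list members of the log2 CPM difference between the DEET and the DMSO sample of the same batch (horizontal axis) for 9 gene lists, 1 square per batch. The batch 4 square lies at 0.10 to 0.24 for the upper 5 lists, where the other batches lie within 0.04 of 0, within the spread of the other batches for collagens and major sperm proteins, and below the others for intestine and furrow collagen genes.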

How the data were processed

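Per the labels' protocols, libraries of polyadenylated RNA from 8 whole-worm samples came from the Kapa mRNA HyperPrep kit and were read in pairs of 38 nucleotides on a NextSeq. The submitters' processing notes name Salmon, DESeq2 and build WBcel235 (per the labels); versions, settings and strand use are not stated there. The counts the authors deposited were whole numbers for each gene without normalization, and a second deposited table gave TPM for the same 46244 identifiers. Identifiers were matched by sequence name to the Ensembl annotation: 46182 matched 1 gene, 3 several and 59 none. All columns belonged to a sample (0 did not).

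Counts were filtered with edgeR 4.0.16 (filterByExpr by treatment), scaled by TMM and put on a log2 CPM scale with a prior count of 2, in R 4.3.3. Only the interaction was tested (edgeR quasi-likelihood, DESeq2 1.42.0 as an alternative, adjusted p threshold 0.05), and its script was tested on simulated data. The p-values measure the spread between the samples outside batch 4 alone, and batch 4 was assumed to vary like them.

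Batch 4, the gene lists and the tests were chosen with earlier results of these data known. Named genes were the 10 largest differences in each direction among genes set apart with a mean of 10 CPM or more, up to 3 set-apart members of each list, up to 5 called interaction genes in each direction, and a set of stage, tissue and stress markers; list members given beside them, such as the chaperones and the collagens of 100 CPM or more, were chosen after their values were seen. The labels mark the number as a batch, and the samples were paired by it on that ground. The samples of a batch deviated together (correlations 0.43, 0.71, 0.56 and 0.90 for batches 1 to 4). The 0.90 of batch 4 comes from the counts on which the batch was selected and is a description. List members whose symbols did not match are not analysed here. Figures were drawn with matplotlib 3.10.9.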

Additional observations from a re-analysis of the deposited data

Results flagged for a closer look

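Each group of 4 samples, DEET or DMSO, was checked for a single highest or lowest sample whose gap to the nearest of the others exceeded Dixon's critical share of the group's range. Chance flags about 1 in 20 groups. Of 114 groups of sample shares and list values 18 were flagged, 17 of them with the batch 4 sample far from the rest, and of 240 groups of single genes 28 were flagged, 26 with the batch 4 sample. The batch was selected on these counts, so the excess of batch 4 is a description. The single genes were the named genes, and most of them were named because they were set apart in batch 4. Their flags therefore cannot be set against the rate of 1 in 20, and no conclusion is drawn from their number.

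Among the shares and lists, DEET 4 stood far above the other DEET samples in ribosomal RNA, at 12.1% of counts. The oocyte, eggshell and maternal regulator list was far below the rest in DEET 4 (-0.42) and DMSO 4 (-0.64), the germ granule list likewise (-0.36 and -0.56), and the DNA replication and cell cycle list too (-0.28 and -0.4). The intestine list was far above in DEET 4 (0.31), and the mitochondrial genome list as well (0.36). In DMSO 4 the lists of ciliated neuron genes (0.37), inducible heat shock genes (2.14), glutathione S-transferases (0.27) and C-type lectins (0.43) stood far above the other DMSO samples, and those of small RNA pathway genes (-0.27) and nucleolar genes (-0.21) far below. The metal response list was far above in both, at 0.42 in DEET 4 and 0.43 in DMSO 4. The 1 list flagged outside batch 4 was the antioxidant list, lowest in DEET 2 at -0.1.

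Among single genes, given as log2 CPM, those far below the rest in both batch 4 samples were H11L12.1 (2.51 with DEET and 2.55 with DMSO), rom-4 (5.05 and 5.57), cpg-1 (10.37 and 10.13), oma-2 (8.29 and 8.02) and pgl-1 (8.52 and 8.23), and vit-3 was so in DMSO 4 (10.57). In DEET 4 phy-2 (6.72), cutl-20 (1.13), ptr-22 (3.12), abu-8 (1.14), gst-21 (2.00) and fbxa-183 (-0.62) stood far above the other DEET samples. In DMSO 4 this held for the cuticle and cilium genes cut-2 (4.20) and osm-5 (0.83), for hsp-16.41 (4.28) and hsp-16.2 (4.13), for msra-1 (5.40), for lipl-1 (6.77) and ech-9 (6.42), and for cyp-13B1 (5.64) and ugt-66 (1.87). Outside batch 4, nhr-73 was lowest in DEET 3 at -4.58, where it had no counts, and fat-7 was highest in DEET 2 at 5.90.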

How the results depend on the processing

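The split into many genes higher and few lower in batch 4 held in its direction under every alternative run. Against 1832 higher and 54 lower genes, a limit of 1.5-fold gave 3408 and 1004, and log2(TPM + 1) gave 771 and 23. The lower count was 88 with no filter and 158 in the DMSO samples alone. DESeq2 size factors gave 1670 and 75, and leaving out ribosomal RNA 1757 and 63. Leaving out 1 sample, or 1 of batches 1 to 3 (chosen after seeing the data), gave 1297 to 2198 higher and 49 to 184 lower genes. The extreme of 184 came without DEET replicate 4, and the lower count was 87 without batch 1 and 93 without batch 3. Lists standing higher numbered 15 in the DMSO samples alone, and 8 to 12 with samples or batches left out; lists standing lower numbered 3 to 5, with 5 without DEET replicate 4. The cause was not tested, other than the limit and the TPM scale, which by construction change how many low-level genes pass.

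The interaction called 0 genes in edgeR, 1 with the replicate block, 6 in DESeq2 and 627 in DESeq2 with the replicate block (chosen after seeing the data), and 0 in edgeR with any sample of batches 1 to 3 left out; the cause was not tested. A batch 4 sample cannot be left out, since each cell of that batch holds 1 sample. The pairing changed no other call, because no other test was run.

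Among single values, the vulva and uterus list (0.04) was -0.01 with DESeq2 size factors and in DMSO samples alone and -0.04 to 0.06 with a sample or batch left out, -0.03 of them without batch 3. The male list (0.22) was -0.16 without batch 1 and up to 0.57 without DEET replicate 4. unc-119 (-0.19) was 0.03 in DEET samples alone, and -0.45 to 0.03 with a sample or batch left out. The hypoxia list sat at the limit of 0.5, at 0.47 to 0.52, and the fasting list (0.84) was 0.48 on the log2(TPM + 1) scale. Of 103 named genes set apart 18 were under the size limit with some sample or batch left out, among them acs-2, alg-3, alg-4, msp-142, gpdh-1 and cpg-1. Over all alternatives 97 values of named genes moved beyond the spread of batches 1 to 3, 2 reversed and 2059 did neither. Of the list medians 218 moved, 6 reversed and 730 did neither. Genes of low counts limit the precision, and batch 4 rests on 2 samples that share 1 batch.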

Other observations

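Gene families named by their shared symbol were counted after their values were seen, over all families with 10 or more tested members. Besides the listed ones, the irld genes, named for receptor L-domains like those of the insulin receptor, had 5 of 11 members set apart higher in batch 4 and 10 above the other 6 samples without overlap. The snf genes, sodium-coupled transporters, had 5 of 10 set apart higher, the nep genes, neprilysin-like peptidases, 7 of 20, and the oac genes, acyltransferase-like, 8 of 23. On the lower side no family had many members past the size limit, but 25 of 26 npp genes, which build the nuclear pore, lay below the other samples with a median of -0.51. So did 11 of 11 ints genes of the Integrator complex (median -0.43), 12 of 13 prp genes of RNA splicing (-0.40), 13 of 13 rpn genes of the proteasome (-0.43) and 22 of 25 eif genes of translation initiation (-0.23). The shares of all tested genes were 11.8% set apart higher, 34.4% above the others and 29.6% below them. The highest of 4 equal groups by mean CPM had a median of -0.30, lower than that of the eif genes. The part of level in these families was not tested.

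The chromosomes held different shares of genes set apart higher in batch 4. Chromosome IV had 15.7% of its tested genes on that side, II 13.8%, V 13.7%, I 11%, III 8.58% and X 6.63%. The median difference was 0.20 on chromosome V, 0.16 on X, 0.11 on IV, 0.06 on II, -0.02 on III and -0.04 on I.

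Level and gene length went with the difference as well. In the lowest of 4 equal groups by mean CPM 21.7% of genes were set apart higher with a median difference of 0.44, and in the highest group 0.903% with a median of -0.30. In the group with the shortest exon length, up to 870 bases, 16.3% were set apart higher with a median of 0.25, and in the longest group, from 2015 bases, 5.32% with a median of -0.20. Length and level are related across genes, and their part in the list results was not tested.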
